A study of Mus musculus with 12 samples.

Results

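The Lce1 genes encode late cornified envelope proteins and were studied here as 10 named genes of the mouse: Lce1a1, Lce1a2, Lce1b, Lce1c, Lce1d, Lce1f, Lce1g, Lce1h, Lce1l and Lce1m. They were chosen by symbol and not by a rule on their measured values, though with earlier results of these data known. All 10 were found among the 18505 genes of the expression table. All 10 also passed the filter on low values (a mean of at least 0.1 FPKM over the 12 samples) together with 15288 genes in all. Another 4 genes of the same subfamily, Lce1e, Lce1i, Lce1j and Lce1k, were outside the choice and are given only for comparison. FPKM stands for fragments per kilobase of transcript scaled by the mapped fragments of a sample, so that levels can be compared between genes.

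The samples were back skin of wild-type BALB/c mice, which the study describes as male and 5 to 6 weeks old, taken on day 10 after the back had been shaved. The 4 control samples came from skin coated with petroleum jelly. The 4 IMQ + NS samples came from skin that received imiquimod cream (IMQ, an agonist of Toll-like receptor 7 that induces psoriasis-like lesions) and then 0.9% NaCl solution (NS), and the 4 IMQ + BZLF samples from skin that received the same cream and then the Banzhilian formula (BZLF), a herbal preparation applied to the skin. The vehicles differed, since the controls received neither IMQ cream nor NS, and the dose of BZLF that the sequenced skin received was not stated. In the paper the skin of both IMQ groups was also covered with gauze and a polyurethane film, which is not described for the controls. In comparisons with the controls, effects of IMQ and of this covering cannot be told apart. The labels do not say whether samples of a group were from separate mice, so p-values measure the spread between samples.

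Late cornified envelope proteins are small proteins that keratinocytes of the upper epidermis make at the end of their differentiation. Transglutaminases cross-link them, together with loricrin, involucrin and the small proline-rich proteins, into the insoluble shell that replaces the plasma membrane of the dead cell. Their genes lie side by side in the epidermal differentiation complex. Genes of the LCE1 group are generally expressed in normal skin, whereas genes of the LCE3 group are known for induction in wounded and psoriatic skin.

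The 10 genes lay on chromosome 3 between positions 92646535 and 93019060 of GRCm38 (mm10), a stretch of 373 kb, and were annotated as protein-coding genes with 2 exons each. The order along the chromosome was Lce1a1, Lce1b, Lce1a2, Lce1c, Lce1d, Lce1f, Lce1g, Lce1h, Lce1l and Lce1m, with Lce1c on the plus strand and the other 9 on the minus strand. Lce1m (position 93017810 to 93019060) was separated from Lce1l by 167 kb, in which all 6 Lce3 genes were found. The annotated transcripts were similar in sequence. The closest pair was Lce1g and Lce1h, with 95.3% identical aligned bases, followed by Lce1a1 and Lce1a2 with 92.4%. Lce1m stood farthest from the others, with at most 79.1% identity, to Lce1i. Identical stretches could have split reads between genes. Of all windows of 100 bases in the transcript of each gene, 0 to 2.15% also occurred in another gene's transcript, and of windows of 50 bases 0 to 25.4%. For Lce1m the share was 0% at both lengths, so the levels of the other 9 genes are less certain in this respect than that of Lce1m.

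RefSeq promoter sequences (GRCm38.p6, from 250 bases before to 50 bases after the start of the gene) were found for 9 of the 10 genes, all but Lce1f. The 85 bases around the start of 6 genes are shown because these genes differed in how their levels moved, Lce1a1 and Lce1d with no call, Lce1g and Lce1h with a rise and Lce1l and Lce1m with a fall in IMQ-treated skin. Each is written 5′ to 3′ on the strand of the gene, from 70 bases before the start base to 14 after it. Capitals mark ATAAAA, a form of the TATA box, and the run CACTGTCTCAC, the longest run that at least 6 of the 9 promoters shared.
Lce1a1 (chr3:92648293-92648377, minus strand): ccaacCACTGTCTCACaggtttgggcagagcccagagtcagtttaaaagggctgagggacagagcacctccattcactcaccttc
Lce1d (chr3:92687196-92687280, minus strand): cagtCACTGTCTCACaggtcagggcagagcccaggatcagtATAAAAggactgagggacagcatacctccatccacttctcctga
Lce1g (chr3:92752324-92752408, minus strand): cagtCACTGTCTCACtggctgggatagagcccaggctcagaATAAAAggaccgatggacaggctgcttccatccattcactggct
Lce1h (chr3:92765051-92765135, minus strand): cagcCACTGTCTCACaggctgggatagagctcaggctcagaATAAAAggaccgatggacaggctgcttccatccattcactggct
Lce1l (chr3:92851272-92851356, minus strand): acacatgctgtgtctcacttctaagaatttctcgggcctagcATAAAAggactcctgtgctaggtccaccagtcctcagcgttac
Lce1m (chr3:93019047-93019131, minus strand): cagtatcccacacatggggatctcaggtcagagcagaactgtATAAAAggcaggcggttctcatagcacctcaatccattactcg

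ATAAAA stood 28 or 29 bases before the start in 8 of the 9 promoters, all but that of Lce1a1. With both strands searched, 18.5% of the 32851 RefSeq promoters of the same length held it. CACTGTCTCAC was found in Lce1a1, Lce1b, Lce1a2, Lce1d, Lce1g and Lce1h, 65 or 66 bases before the start, and in 0.0487% of all promoters, which is 16 promoters. It occurred both in genes with no call and in genes that rose, and not in Lce1c, Lce1l or Lce1m. These 11 bases were selected from the Lce1 promoters themselves, and they are given as a description. The letters TGANTCA, the core that AP-1 proteins bind, were in 0 of the 9 windows and in 7.81% of all promoters. CCAAT was in 0 of the 9 and in 37.4% of all.

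In control skin Lce1m had the highest FPKM of the 10 genes in each of the 4 samples, 248 ± 96.1 FPKM (SD, n = 4), followed in each sample by Lce1a1 at 131 ± 38.8. Lce1c, Lce1b, Lce1d, Lce1l, Lce1f and Lce1a2 followed with means of 80.4, 62.2, 48.7, 35.9, 24.1 and 17.2 FPKM. The ranges of each gene and the next in this order overlapped, from Lce1m down to Lce1a2. Lce1h at 4.84 ± 0.842 FPKM and Lce1g at 3.98 ± 0.457 FPKM were lowest, and their ranges overlapped each other but not that of Lce1a2.

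The sum of the 10 genes varied more among samples of a group than the share that the 5 genes from Lce1a1 to Lce1d took of it. This sum was 351 to 828 FPKM in the controls, 313 to 546 after IMQ + NS and 350 to 960 after IMQ + BZLF. Control replicate 2 was the lowest control for 9 of the 10 genes, and IMQ + BZLF replicate 3 was the highest of its group for all 10. Loricrin (Lor), the main protein of the cornified envelope, was at 303 FPKM in control replicate 2 against 563, 891 and 860 in the other controls, and at 700 FPKM in IMQ + BZLF replicate 3 against 255, 367 and 301. Control replicate 2 also had a summed level of 8 hair shaft markers of 291 FPKM, against a group median of 20.5. The 5 genes from Lce1a1 to Lce1d took 50.7% to 54.6% of the family sum in the control samples, including control replicate 2. Their share was 66.5% to 68.8% after IMQ + NS and 64.0% to 66.4% after IMQ + BZLF. Shares of some single genes varied more, such as 0.450% to 1.07% for Lce1g in the controls and 1.42% to 2.99% for Lce1m after IMQ + NS.

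**Figure D1:**
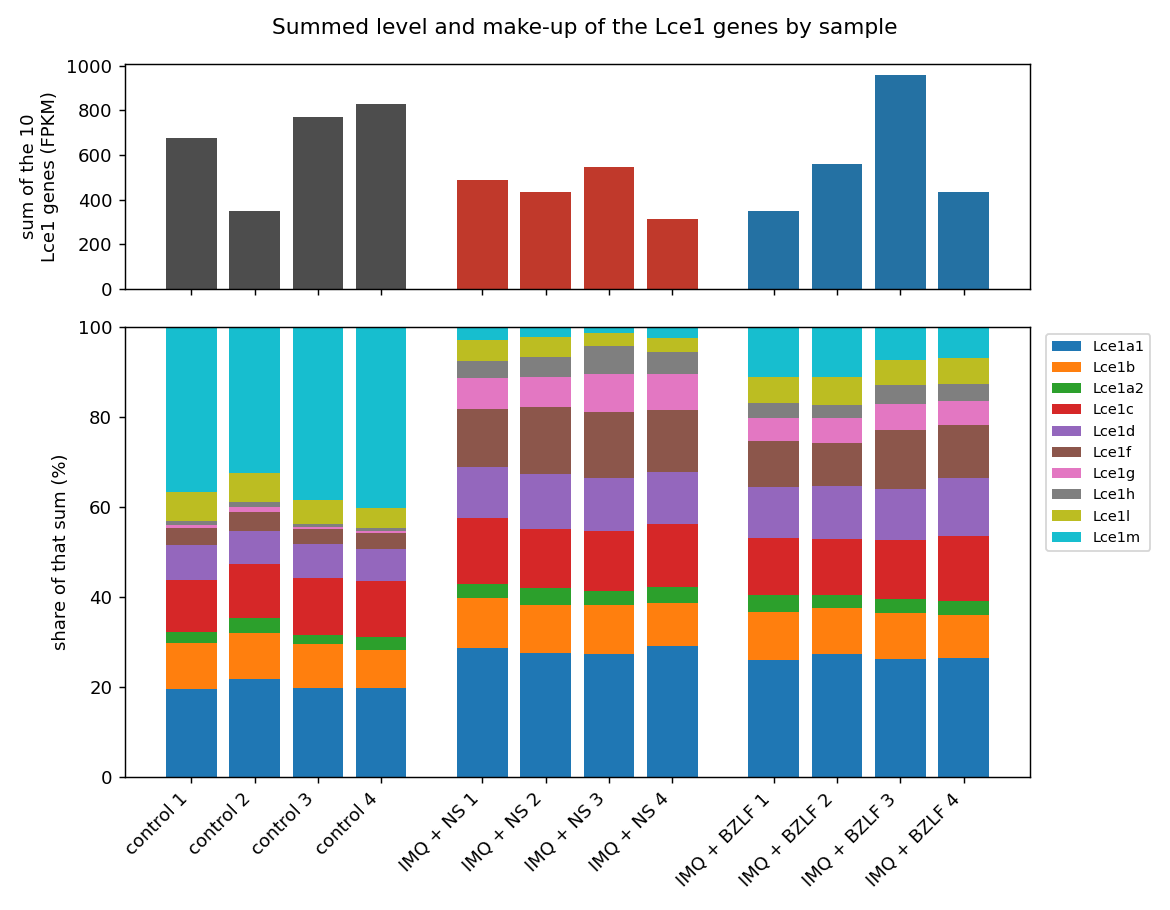
Upper bars give the summed FPKM of the 10 Lce1 genes in each of the 12 samples, and lower bars the share of each gene in that sum, in percent. The sum ranged from 351 to 828 FPKM in the controls, while Lce1m took 32.5% to 40.3% of it in controls, 1.42% to 2.99% after IMQ + NS and 6.99% to 11.1% after IMQ + BZLF.

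To see how the family differed between normal skin and psoriasis-like lesions, the IMQ + NS samples were compared with the controls. Of the 10 genes, 3 rose (Lce1f, Lce1g and Lce1h), 2 fell (Lce1l and Lce1m) and 5 were not called (Lce1a1, Lce1a2, Lce1b, Lce1c and Lce1d). A call needed both an adjusted p below 0.05 and a difference of more than 1 on the log2 scale in either direction, from limma on log2(FPKM + 0.1) with Benjamini-Hochberg adjustment over all genes tested. By this rule 11.4% of all 15288 genes were higher and 11.0% were lower. The median log2 fold change of the family was -0.10 and that of all genes tested 0.053. Skin samples hold many cell types, and fewer cells of a type cannot be told apart from less RNA per cell.

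Lce1m showed the largest difference of the family. It was at 248, 114, 297 and 334 FPKM in the controls and at 14.6, 9.97, 7.76 and 7.52 FPKM in the IMQ + NS samples. Every IMQ + NS sample lay far below every control, the low control replicate 2 included. The mean was 24.9-fold lower, with a log2 fold change of -4.57 (standard error 0.35, limma adjusted p = 1.9e-05). Lce1m was thus first of the 10 genes in all 4 controls and last of the 10 in all 4 IMQ + NS samples. Lce1l, the nearest of the 10 genes along the chromosome but 167 kb away, fell less. It went from 44.0, 22.7, 40.4 and 36.4 FPKM to 22.9, 19.0, 16.0 and 10.1 FPKM. The groups overlapped, since IMQ + NS replicate 1 lay just above control replicate 2. The log2 fold change of Lce1l was -1.09 (standard error 0.28, limma adjusted p = 0.0101), close to the limit, and the call was lost without control replicate 1 (-0.98) or without IMQ + NS replicate 4 (-0.86).

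Lce1g, with the lowest mean of the 10 genes in normal skin, rose most. Its FPKM was 4.23, 3.74, 3.47 and 4.47 in the controls and 33.1, 29.5, 45.6 and 25.3 in the IMQ + NS samples. All IMQ + NS samples were above all controls, by 8.39-fold in the mean and by 3.01 on the log2 scale (standard error 0.18, limma adjusted p = 4.5e-06). Lce1h went from 5.88, 3.83, 4.78 and 4.89 FPKM to 18.5, 19.0, 33.4 and 15.0 FPKM, again with no overlap. The log2 fold change of Lce1h was 2.07 (standard error 0.24, limma adjusted p = 1.6e-04). Lce1f had 26.4, 14.8, 26.3 and 28.8 FPKM in the controls and 63.1, 63.9, 80.1 and 42.8 FPKM in the IMQ + NS samples, so that the groups did not overlap here either. Its log2 fold change was 1.38 (standard error 0.25, limma adjusted p = 0.00158). The two-sided exact permutation test gave p = 0.0286 for each of Lce1f, Lce1g, Lce1h and Lce1m. This is the smallest value that 4 samples against 4 allow. For Lce1l the two-sided exact permutation test gave p = 0.0571. These exact p-values are not adjusted, and the share of all genes without overlap was not counted, so they are only a description. With no limit on the fold change, limma gave an adjusted p below 0.05 for 4427 higher and 4142 lower genes of 15288.

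The 5 genes at the start of the cluster had overlapping groups throughout. Lce1a1 was at 132, 76.5, 153 and 164 FPKM in the controls and at 140, 120, 149 and 90.9 FPKM in the IMQ + NS samples. Its log2 fold change was -0.04, with a 95% interval from -0.61 to 0.53. The intervals were -0.66 to 0.34 for Lce1a2, -1.02 to 0.26 for Lce1b, -0.999 to 0.31 for Lce1c and -0.49 to 0.79 for Lce1d. A log2 difference of 1 in either direction lay outside the intervals of Lce1a1, Lce1a2 and Lce1d, at the edge of that of Lce1c and inside that of Lce1b.

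**Figure D2:**
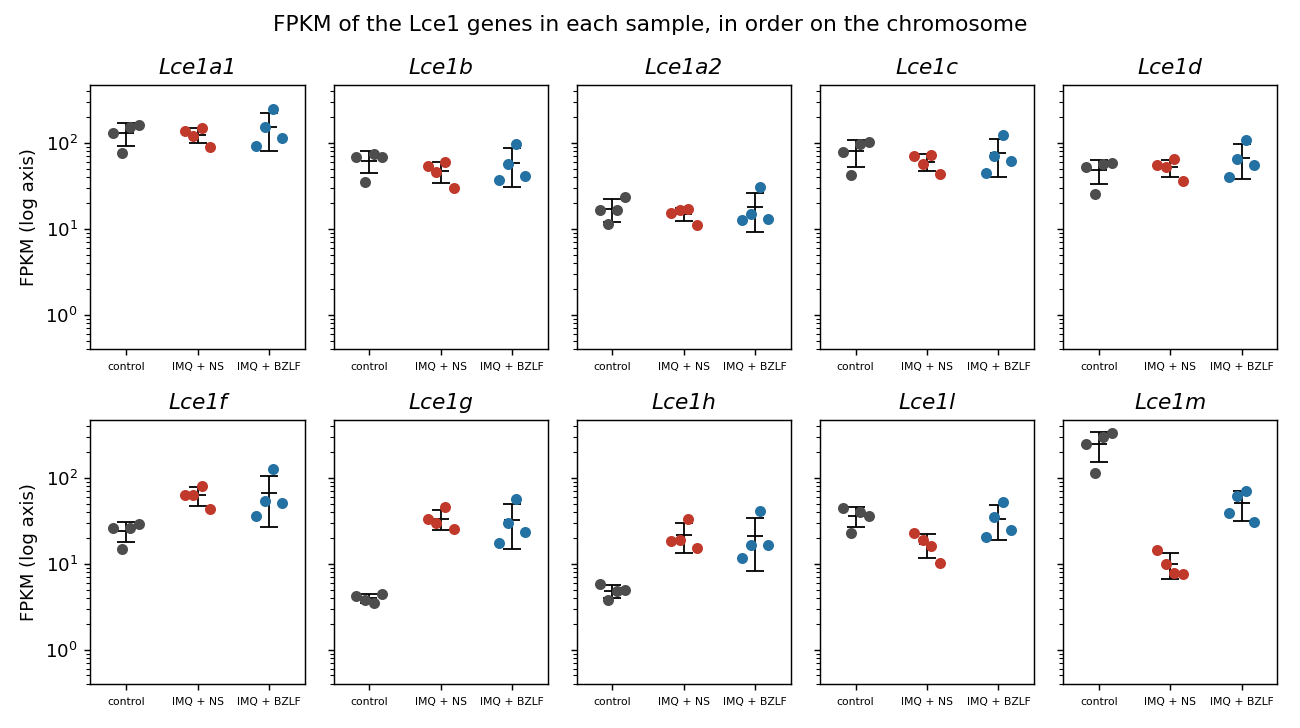
Each panel shows one Lce1 gene, with FPKM on a log axis and 1 point per sample of the 3 groups. The horizontal mark is the mean and the bars are 1 SD (n = 4). Lce1f, Lce1g and Lce1h were higher and Lce1m lower in all IMQ + NS samples than in all controls, and the IMQ + BZLF samples of Lce1m, at 30.2 to 70.9 FPKM, lay between both other groups.

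Lesions given BZLF were then compared with those given NS, to see how they differed after the formula. Of the 10 genes, only Lce1m was called, and it was higher, while 0 were lower by limma. At an unadjusted p below 0.05, 2 were higher (Lce1m and Lce1l) and 0 lower. The share of all genes at this unadjusted limit is not given, here or for the lists below. Such counts are therefore only a description. In this comparison 0.321% of all genes tested were called higher and 2.20% lower. Lce1m was at 38.8, 61.7, 70.9 and 30.2 FPKM in the IMQ + BZLF samples, each above the highest IMQ + NS sample of 14.6 FPKM. The mean of 50.4 ± 19.0 FPKM (SD, n = 4) was 5.06-fold that of 9.96 ± 3.28 FPKM in the IMQ + NS samples. The log2 fold change was 2.30 (standard error 0.30, limma adjusted p = 0.00411), and it stayed between 2.11 and 2.51 when any single sample was left out. As a share of the family sum, Lce1m went from 2.28% ± 0.647 to 9.12% ± 2.24 (SD, n = 4).

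Lce1l moved in the same direction without a call. Its FPKM was 20.5, 35.3, 52.8 and 24.4 in the IMQ + BZLF samples, and only replicate 1 lay below the highest IMQ + NS sample. The log2 fold change was 0.93 with a 95% interval from 0.20 to 1.66 (limma adjusted p = 0.130), and the exact permutation test gave p = 0.0571. The genes that rose with IMQ stayed near their IMQ + NS levels. Lce1g was at 17.7, 30.1, 56.6 and 23.5 FPKM, Lce1h at 11.8, 16.4, 40.6 and 16.5 FPKM, and Lce1f at 35.7, 54.2, 125 and 50.9 FPKM in the IMQ + BZLF samples. Replicate 3 was highest for each of these genes, and the groups overlapped. The log2 fold changes were -0.17 for Lce1g (95% interval -0.91 to 0.57), -0.11 for Lce1h (-0.95 to 0.73) and -0.04 for Lce1f (-0.83 to 0.74). Each interval reached close to a log2 difference of 1 in at least 1 direction. Lce1a1, Lce1a2, Lce1b, Lce1c and Lce1d had log2 fold changes from 0.16 to 0.30, and none was called. The median of the family was 0.22, and that of all genes tested -0.023.

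The IMQ + BZLF samples were also compared with the controls, which shares samples with both comparisons above. Lce1f, Lce1g and Lce1h were higher, Lce1m was lower and 6 genes were not called, where 9.65% of all genes tested were higher and 10.1% lower. The log2 fold changes were 1.34 for Lce1f (limma adjusted p = 0.0150), 2.84 for Lce1g (limma adjusted p = 2.1e-04) and 1.96 for Lce1h (limma adjusted p = 0.00167). The call of Lce1f was lost without IMQ + BZLF replicate 3, at 0.98. Lce1m remained 4.93-fold below the control mean, with a log2 fold change of -2.27 (standard error 0.38, limma adjusted p = 0.00140) and no overlap. Lce1l had a log2 fold change of -0.16 with a 95% interval from -0.87 to 0.55. The median of the family was 0.082, against -0.018 for all genes tested. In the order of levels in the IMQ + BZLF samples Lce1a1 was first in all 4, and Lce1m was between the fourth and the sixth.

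Among the 10 genes, calls followed the order on the chromosome, which was not tested. The 5 uncalled genes in IMQ + NS against control samples were the first 5, the 3 higher genes were the next 3, and the 2 lower genes were the last 2. Of the 4 Lce1 genes outside the choice, which lie just before or after Lce1f to Lce1h, 3 were also called higher in IMQ + NS against control samples. Lce1e had a log2 fold change of 1.30, Lce1j of 1.15 and Lce1k of 1.70, whereas Lce1i, at 0.54, was not called. The Lce3 genes, which stand between Lce1l and Lce1m, differed from both. All 6 were higher in IMQ + NS against control samples and lower after BZLF, relative to IMQ + NS. Lce3a, for example, went from 0.0114 FPKM in the controls to 40.3 ± 24.2 after IMQ + NS and 2.14 ± 0.854 after IMQ + BZLF (SD, n = 4). Its log2 fold changes were 8.36 (limma adjusted p = 5.9e-07) and -4.08 (limma adjusted p = 0.00108). Crct1, which lies directly beside Lce1m and is named after its values were seen, was also called higher in IMQ + NS against control samples (1.10). Lce1m thus differed in sign from the Lce3 genes and Crct1 in IMQ + NS against control samples.

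**Figure D3:**
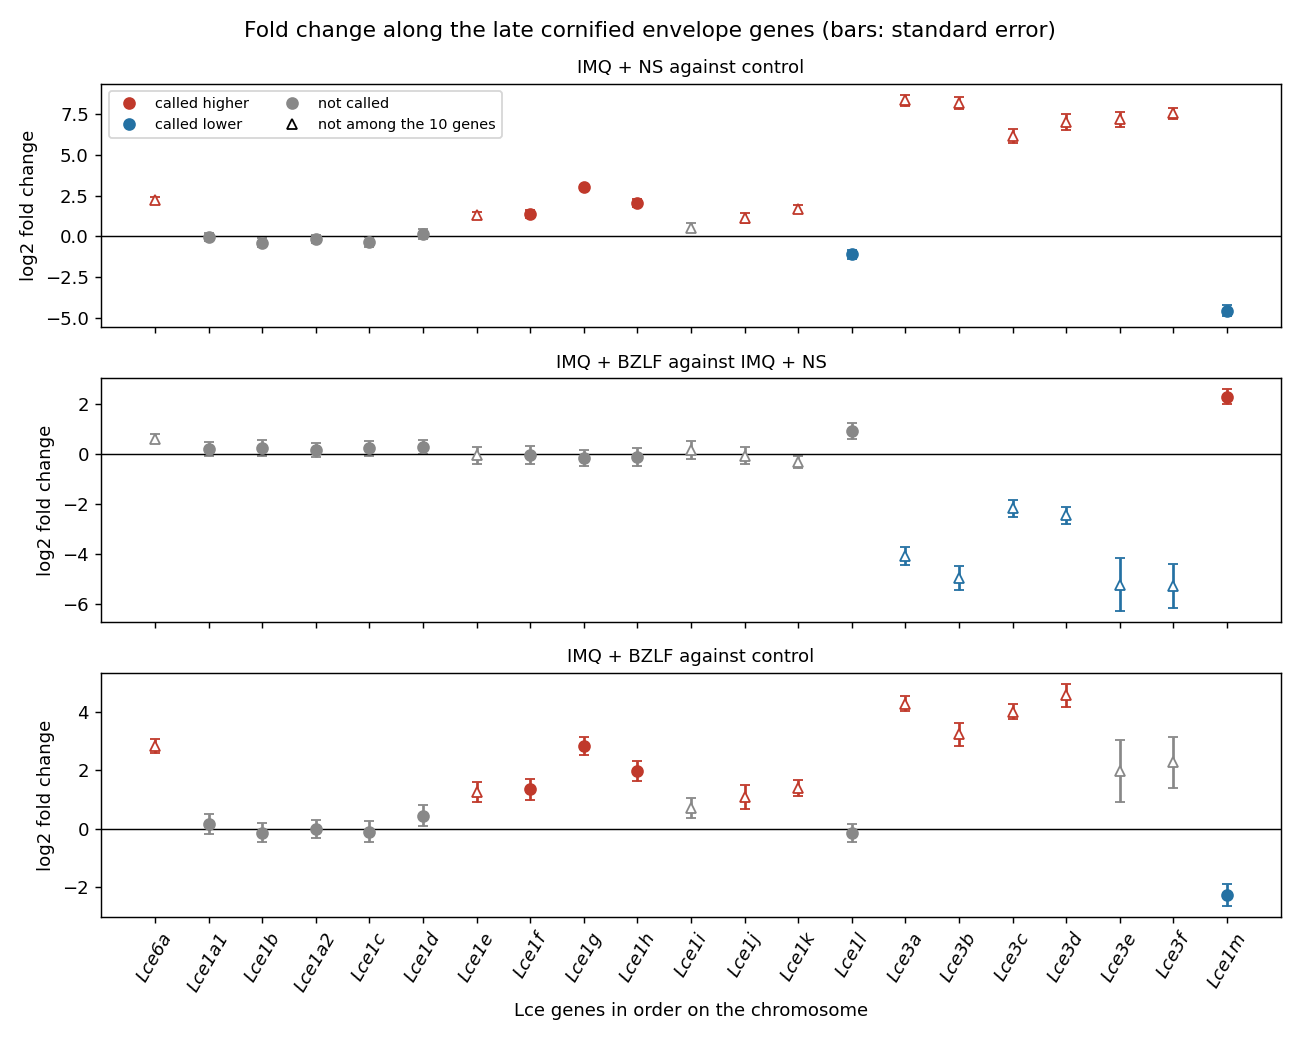
Log2 fold change of 21 late cornified envelope genes in their order on the chromosome (horizontal axis, order only), for the 3 comparisons, with standard errors as bars. Filled circles are the 10 Lce1 genes and open triangles the others, and colour gives the call. Lce1m, at the right end, had log2 fold changes of -4.57, 2.30 and -2.27, opposite in sign to the Lce3 genes to its left.

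How alike the profiles were was measured as the root mean square difference of log2(FPKM + 0.1), centred on each gene's mean, over the 12 samples. Among Lce1a1, Lce1b, Lce1a2, Lce1c and Lce1d it was 0.13 to 0.28, for 10 pairs. It was 0.36 to 0.77 among Lce1f, Lce1g and Lce1h, and 1.46 to 3.19 between Lce1m and each of the others, with Lce1l the nearest of them. Sequence identity did not follow the same order throughout. The pairs of one of the first 5 genes with Lce1f, Lce1g or Lce1h had 82.6% to 88.2% identical bases and profile differences of 0.53 to 1.53, while the 10 pairs within the first 5 had 82.2% to 92.4%. These points share libraries and, in part, sequence, and they are given as a description.

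**Figure D4:**
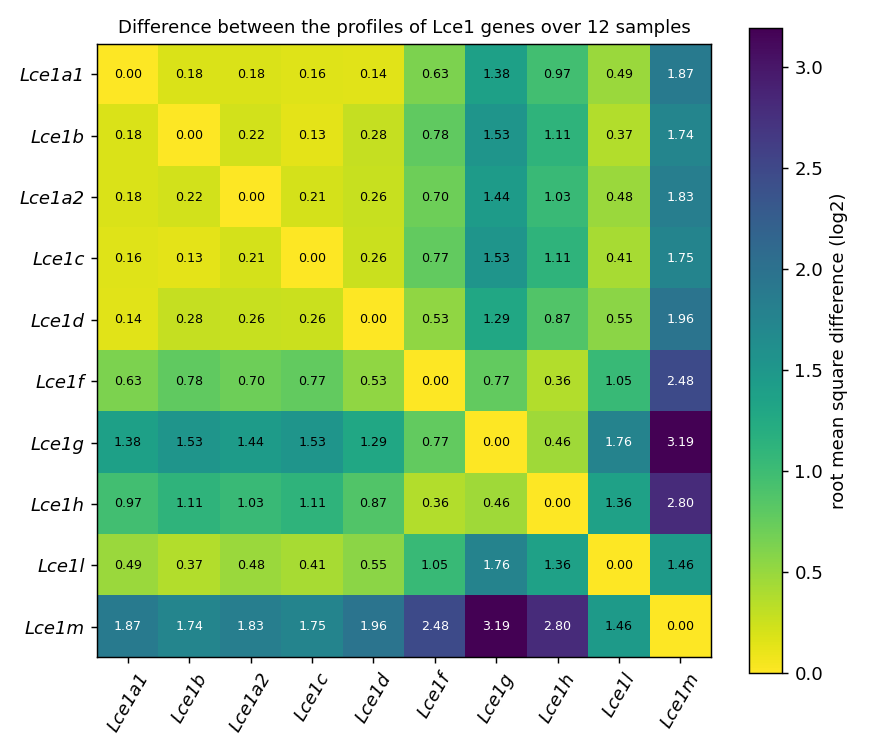
Root mean square difference between the centred log2 profiles of each pair of Lce1 genes over 12 samples, with genes in chromosome order on both axes. The 5 genes from Lce1a1 to Lce1d form a block of differences between 0.13 and 0.28, and Lce1m is 1.46 to 3.19 away from every other gene.

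Of the 12647 genes with a mean of at least 1 FPKM, those nearest to the median profile of the family were Gramd1c (0.18), Ubtd1 (0.28), Ggh (0.29), Cysrt1 (0.30) and Lce1i (0.31). Gramd1c was at 2.38 FPKM in control skin, 2.87 after IMQ + NS and 3.09 after IMQ + BZLF, while Lce1i was at 18.7, 28.1 and 33.6 FPKM in the same order of groups. Genes nearest to Lce1m alone, a measure chosen after its values were seen, were Glt8d2 (0.45), the neuropeptide gene Gal (0.48), Kazald1 (0.55), the retinaldehyde dehydrogenase gene Aldh1a1 (0.57) and Flg2 (0.57). Lce1g was closest to Flg, which encodes profilaggrin (0.40), and Lce1f to Lce1e (0.11).

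The other parts of the cornified envelope program were read from lists of genes. Of 29 other cornified envelope genes tested, 22 were higher and 2 lower in IMQ + NS against control samples, and 1 was higher and 10 lower after BZLF, in IMQ + BZLF against IMQ + NS skin. The 4 with the largest differences after BZLF were the small proline-rich genes Sprr2b, Sprr2d, Sprr2e and Sprr2i. The remaining lower genes, named after their values were seen, were Sprr1b, Sprr2a1, Sprr2f, Sprr2h, Sprr2k and Rptn. The genes lower after BZLF were thus Rptn and members of the small proline-rich family, and did not extend across the list. Lor, Ivl, Flg, Evpl, Ppl, Cdsn, Sprr1a and Sprr4 were among those without a call after BZLF. Sprr2b was at 0.171 FPKM in control skin, 268 after IMQ + NS and 1.18 after IMQ + BZLF, with a log2 fold change of -7.70 after BZLF (limma adjusted p = 8.3e-05). Sprr2 genes are alike in sequence, so reads may have been divided among them. The 1 gene of this list that was higher after BZLF was Flg2, which encodes filaggrin-2, a protein of the upper epidermis, and which was named after its values were seen. Flg2 was at 12.7 ± 3.58 FPKM in the controls, at 1.22 ± 0.663 after IMQ + NS and at 4.92 ± 1.72 after IMQ + BZLF (SD, n = 4).

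Among 14 genes for enzymes that cross-link the envelope or process filaggrin, with the protease inhibitor gene Spink5 counted among them, 11 were higher and 0 lower in IMQ + NS against control samples. After BZLF the protease gene Klk14 was called, with a log2 fold change of -1.75 (limma adjusted p = 0.0432). At an unadjusted p below 0.05, 2 of the 14 were higher and 7 lower after BZLF. The share of all genes at this limit is not given, so this count and the next such count are only a description. Of 26 transcription factors of keratinocyte differentiation, 13 were higher and 0 lower in IMQ + NS against control samples, and 1, Elf3, was lower after BZLF (-1.26, limma adjusted p = 0.0150), while at an unadjusted p below 0.05 1 was higher and 12 were lower. The median log2 fold change in IMQ + NS against control samples was 3.18 for the envelope genes, 2.12 for the enzyme list and 0.97 for the transcription factors, against 0.053 for all genes tested and -0.10 for the 10 Lce1 genes. Some members, named after their values were seen, rose about as much as hair shaft markers such as Krt31 (7.68). These were Tchh (7.14) and Crnn (7.33) of the envelope list and Padi3 (6.94) of the enzyme list. In the controls Tchh had a median of 5.32 and a maximum of 203 FPKM. The part of hair in these medians was not tested.

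Keratins were read by layer. Of 7 suprabasal keratins 1 (Krt1) was higher and 1 (Krt77) lower in IMQ + NS against control samples, and Krt77, a keratin of the upper epidermis, was the 1 called after BZLF. Krt77 was at 598 ± 227 FPKM in the controls, 3.63 ± 2.26 after IMQ + NS and 34.4 ± 16.5 after IMQ + BZLF (SD, n = 4), with a log2 fold change of 3.27 after BZLF (limma adjusted p = 0.00354). Krt1, which is named after its values were seen, went the other way, at 232 ± 94.0, 1152 ± 328 and 517 ± 208 FPKM in the same order of groups. Its log2 fold change after BZLF was -1.20 (limma adjusted p = 0.0534), which was not called. At an unadjusted p below 0.05, 2 suprabasal keratins were higher and 2 lower after BZLF, again without the share of all genes and only as a description. All 4 hyperproliferation keratins were higher in IMQ + NS against control samples. After BZLF 3 of the 4 were lower, with log2 fold changes of -4.95 for Krt16, -4.42 for Krt6b and -2.39 for Krt6a (limma adjusted p = 0.00183, 8.8e-04 and 0.00167). Of 3 basal keratins, 2 were higher in IMQ + NS against control samples and Krt14 was lower after BZLF (-1.54, limma adjusted p = 0.00571).

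Markers of other cell types also differed between groups. The summed level of 8 hair shaft markers, which include Krt33a, Krt81 and Krt86, was 10.9 to 291 FPKM in the controls, 5197 to 7668 after IMQ + NS and 6987 to 10628 after IMQ + BZLF, and all 8 were higher with IMQ. All 6 skeletal muscle markers, among them Acta1, Ckm and Mylpf, were lower in IMQ + NS against control samples (sums of 3259 to 8134 against 616 to 1446 FPKM). The adipocyte list, with Cfd, Fabp4 and Adipoq, had 4 of 6 lower (3798 to 8602 against 1870 to 2948 FPKM), and the sebaceous gland list had 3 of 6 lower, Far2 and Awat1 among them (186 to 287 against 103 to 240 FPKM). Elovl3 of the same list went the other way, from 46.9 to 92.7 FPKM with a log2 difference of 0.93 (limma adjusted p = 0.00511), just short of a call, and 2 of the 6 were higher with IMQ at an unadjusted p below 0.05. In all 4 of these lists 0 genes were called after BZLF by limma. At an unadjusted p below 0.05, 2 of the muscle, 2 of the adipocyte and 1 of the sebaceous gland markers were higher after BZLF, and 0 of the hair shaft markers. The share of all genes at this limit is not given, so such counts of markers are only a description. All 6 neutrophil markers, with S100a9, S100a8, Retnlg and Cxcr2 named by the rule, were higher in IMQ + NS against control samples and lower after BZLF, with sums of 31.6 to 50.3, 3126 to 9889 and 62.6 to 83.2 FPKM. After IMQ + NS nearly all of this sum was S100a8 and S100a9, at means of 3010 and 2909 FPKM, whereas Csf3r, the next highest marker, was at 14.8. S100a8 and S100a9 are also made by activated keratinocytes. Of the T cell markers, 4 of 6 were tested, among them Cd3g, Cd3e and Cd4, and 0 were called in either of these comparisons by limma (sums of 11.3 to 17.0, 8.52 to 17.9 and 5.02 to 11.0 FPKM). At an unadjusted p below 0.05, 1 of them was higher and 1 lower with IMQ, and 0 were higher and 1 lower after BZLF. The part of these differences in the Lce1 values was not tested.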

How the data were processed

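Of 12 back skin RNA-seq samples, 4 belonged to each group (control, IMQ + NS, IMQ + BZLF) by their titles. The authors deposited 1 FPKM value per gene and sample, normalized for transcript length and depth, neither logged nor pooled. The paper's methods name Bowtie2, eXpress and DESeq2 on counts, whereas the submitters' processing notes name fastp, HISAT2, HTSeq, R 3.2.0 and the build mm10. The paper and the labels also name different extraction and library kits. Which of these made the values is not given in the sources used here. Reads that match several Lce1 genes could be divided differently by each route. FPKM sums per sample were 444660 to 461199 in the controls and 476676 to 506622 in the samples of both IMQ groups, without overlap. Counts were not analysed here, so the depth behind a value is unknown and its precision rests on the 4 replicates.

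Genes with a mean of at least 0.1 FPKM were tested on log2(FPKM + 0.1) with limma 3.58.1 in R 4.3.3 (moderated variances with a trend, each pair of groups fitted alone) and Benjamini-Hochberg adjustment. The constant understates fold changes of low genes. On simulated data the fit was checked for 200 changed genes. A two-sided exact permutation test was used for single genes. The Lce1 genes and all lists were chosen with earlier results of these data known. Named were all 10 Lce1 genes, the members of each list called in IMQ + BZLF against IMQ + NS samples (at most 4, by size) or otherwise the 3 with the highest mean, and the 5 genes nearest to the median profile of the family. Figures and sequence work used Python 3.11.15, matplotlib 3.10.9 and Biopython 1.88, with GENCODE annotation and RefSeq promoters of GRCm38. Alternatives were other constants, filters, scalings and variance models, all samples in one fit, no fold limit, a replicate block and leaving out each sample.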

Additional observations from a re-analysis of the deposited data

Results flagged for a closer look

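In 3 of the 30 sets of 4 samples (10 genes in 3 groups), 1 sample stood apart from the other 3 by Dixon's criterion at the 95% level, which chance meets in about 1 in 20 sets. Lce1a2 in IMQ + BZLF replicate 3 was at 30.6 FPKM, where the nearest other sample was at 15.0. Lce1h in the same sample was at 40.6 FPKM, with the nearest other sample at 16.5. Lce1b in control replicate 2 was at 35.6 FPKM, with the nearest other sample at 69.0. IMQ + BZLF replicate 3 was the highest of its group for all 10 genes, and control replicate 2 the lowest of its group for 9.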

How the results depend on the processing

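The 12 alternatives other than leaving out a sample gave the same numbers of called Lce1 genes in all 3 comparisons. With a replicate block, 3 genes were higher and 2 lower in IMQ + NS against control samples, 1 was higher and 0 lower in IMQ + BZLF against IMQ + NS samples, and 3 were higher and 1 lower in IMQ + BZLF against control samples. Whether the replicate numbers pair samples across groups was not settled. Correlations of same-numbered deviations were -0.15 to 0.26, and 2, 3 and 2 of 4 samples correlated best with their own number. With any 1 sample left out, the number of lower genes in IMQ + NS against control samples was 1 to 2 and that of higher genes in IMQ + BZLF against control samples 2 to 3.

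Of 30 log2 fold changes (10 genes in 3 comparisons), 10 were called, and 0 of these changed sign. Of the 20 uncalled, 15 changed sign at least once. Median ratio scaling gave 0.016 for Lce1f in IMQ + BZLF against IMQ + NS samples, and a constant of 1 gave 7.4e-04 for Lce1a2 in IMQ + BZLF against control samples. With 1 sample left out, the lowest and highest values in IMQ + NS against control samples were -0.28 and 0.10 for Lce1a1, -0.34 and 0.0079 for Lce1a2, and -0.13 and 0.32 for Lce1d. In IMQ + BZLF against IMQ + NS samples they were -0.070 and 0.42 for Lce1a1, -0.13 and 0.29 for Lce1a2, -0.043 and 0.42 for Lce1b, -0.046 and 0.45 for Lce1c, -0.40 and 0.20 for Lce1f, -0.49 and 0.070 for Lce1g, and -0.48 and 0.12 for Lce1h. In IMQ + BZLF against control samples they were -0.11 and 0.38 for Lce1a1, -0.29 and 0.17 for Lce1a2, -0.42 and 0.046 for Lce1b, -0.40 and 0.11 for Lce1c, and -0.42 and 0.037 for Lce1l. The cause was not tested.

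Over all genes, 1168 were higher and 1023 lower in IMQ + NS against control samples with a constant of 1, and 4427 and 4142 with no limit on the fold change. In IMQ + BZLF against IMQ + NS samples these were 17 and 188, and 195 and 791. In IMQ + BZLF against control samples they were 979 and 865, and 3640 and 4458. Rescaling samples to equal sums moved the median of all genes in IMQ + NS against control samples from 0.053 to -0.073. Depth could not be read from FPKM, so low values such as those of Lce1g in the controls carry an unknown counting error.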

Other observations

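Genes whose profiles lay nearest to that of Lce1m are given here with their values as a description, since they were selected for this likeness. Glt8d2, a glycosyltransferase domain gene, was at 40.4 ± 16.1 FPKM in the controls, 2.88 ± 0.970 after IMQ + NS and 10.7 ± 3.76 after IMQ + BZLF (SD, n = 4). Aldh1a1, which encodes an enzyme that makes retinoic acid from retinaldehyde, was at 67.8 ± 29.7, 5.69 ± 2.47 and 14.0 ± 2.80 FPKM, and the neuropeptide gene Gal at 15.1 ± 7.22, 0.352 ± 0.0718 and 1.72 ± 0.803 FPKM.

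Genes nearest to Lce1g included Flg at 1.54 ± 0.358, 16.6 ± 5.51 and 17.8 ± 8.36 FPKM and Cnfn, which encodes the envelope protein cornifelin, at 37.4 ± 12.01, 328 ± 39.1 and 243 ± 23.0 FPKM in the same order of groups. The calcium channel gene Trpv6 was at 0.685 ± 0.0940, 4.64 ± 0.578 and 5.42 ± 0.941 FPKM. Near Lce1f stood Asprv1, which encodes a protease that cuts profilaggrin, at 243 ± 84.8, 659 ± 98.1 and 588 ± 93.7 FPKM.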
